A study of Mus musculus with 10 samples.

Results

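The heavy chain variable segments, the Ighv genes, were followed in RNA-seq of sorted splenic plasma cells. All rows whose Ensembl identifier maps to a symbol starting Ighv and to the gene type IG_V_gene were taken, which gave 113 genes of the 47719 identifiers measured. The choice used names and gene types only and no measured value. There were 2 groups, 5 libraries of IgM and 5 of IgG1 plasma cells, all from spleen. Every donor cell carried S1PR2-CreERT2, a Cre driven from the S1PR2 gene of germinal centre B cells and active only after tamoxifen, together with the Ai14 reporter, which switches on tdTomato once Cre has acted, and the B1-8germ heavy chain. Whether B1-8germ sat on 1 or both chromosomes of the donors is not given in the sources used here. The donor B cells bore a congenic mark and were transferred into wild-type mice, which keep their own B cells. Recipients were immunized on day 0 with NP-CGG adsorbed to alum, and tamoxifen followed on days 5 and 6. Donor plasma cells positive for tdTomato were sorted by isotype on day 10. The labels do not tie libraries to animals, so each p-value reflects only how far these samples spread, and that spread may be technical.

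A B cell builds its heavy chain gene by joining 1 V segment to a D and a J segment, and the promoter in front of the chosen V segment then drives the transcript, while V segments that were not joined stay nearly silent in mature cells. Class switching from IgM to IgG1 replaces the constant region and leaves the joined V segment in place. B1-8 is a prearranged heavy chain made from the V segment V186.2, whose gene is Ighv1-72, and the J segment Ighj2, and with a lambda light chain it forms an antibody against the hapten NP. V segments fall into families by sequence, and family 1, the J558 family to which Ighv1-72 belongs, is the largest in the mouse.

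Levels are given in FPKM, which counts fragments relative to the length of a transcript and to the size of a library, as deposited by the authors. FPKM is scaled by length, but levels of V, J and constant genes could not be set side by side as amounts. In IgG1 cells Ighj2 averaged 65572 FPKM, above the mean of 39472 FPKM for the sum of all Ighv genes. Yet a joined J segment lies in a transcript with 1 V segment. Levels of V segments are therefore set beside each other, and the ratio of V to constant genes is given per group as a description only. The depth of a library, inferred from what 1 fragment adds to a low value, was 26.9 to 31.2 M fragments in IgM and 26.4 to 38.4 M in IgG1 libraries (M, 10 to the power 6). The sort was visible in the constant regions, where Ighm averaged 85377 FPKM (SD 3310, n = 5) in IgM cells but 1170 FPKM (SD 85.5, n = 5) in IgG1 cells. It was less sharp for Ighg1, the constant gene of IgG1, which averaged 14974 FPKM (SD 4280, n = 5) in IgM cells. In IgG1 cells Ighg1 averaged 93807 FPKM (SD 8149, n = 5).

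The segments that carry the results are printed here from the GENCODE M21 transcripts on GRCm38, all on the minus strand of chromosome 12. Ighv1-72 (ENSMUSG00000096074) lies at chr12:115757984-115758461 and Ighv1-50 (ENSMUSG00000094198) at chr12:115119748-115120219. These are the most abundant members. Their final 294 bases, which encode the mature V region, are shown with capitals at the 24 positions where the 2 genes differ.

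Ighv1-72: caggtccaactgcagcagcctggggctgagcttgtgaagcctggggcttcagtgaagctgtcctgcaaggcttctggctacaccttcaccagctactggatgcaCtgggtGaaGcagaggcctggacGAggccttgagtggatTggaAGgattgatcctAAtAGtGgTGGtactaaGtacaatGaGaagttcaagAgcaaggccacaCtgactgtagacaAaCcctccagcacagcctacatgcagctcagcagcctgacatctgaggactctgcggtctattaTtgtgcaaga
Ighv1-50: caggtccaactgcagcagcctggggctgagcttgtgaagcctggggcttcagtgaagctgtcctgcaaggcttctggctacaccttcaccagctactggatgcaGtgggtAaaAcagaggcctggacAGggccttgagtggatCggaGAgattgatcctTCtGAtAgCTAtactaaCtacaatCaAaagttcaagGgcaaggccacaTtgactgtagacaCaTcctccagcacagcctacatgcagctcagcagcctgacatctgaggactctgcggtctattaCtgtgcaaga

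Ighv1-62-3 (ENSMUSG00000096767), at chr12:115460999-115461485, is shown because it is the closest relative of Ighv1-72, with 99.3% of the 294 bases identical. Its 2 capitals mark the positions that differ from Ighv1-72.

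Ighv1-62-3: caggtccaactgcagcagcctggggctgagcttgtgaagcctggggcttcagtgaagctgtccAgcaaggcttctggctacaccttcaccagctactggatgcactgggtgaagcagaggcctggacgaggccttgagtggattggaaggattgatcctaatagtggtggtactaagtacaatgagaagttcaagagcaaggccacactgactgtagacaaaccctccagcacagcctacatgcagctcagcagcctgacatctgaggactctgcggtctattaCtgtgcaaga

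The next closest genes differ from Ighv1-72 at 12 to 20 of the 294 bases, and 4 to 14 of those differences fall in positions 140 to 201, around the second hypervariable loop. That window is shown for Ighv1-72 and 5 of these genes, with capitals where a base differs from Ighv1-72.

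Ighv1-72: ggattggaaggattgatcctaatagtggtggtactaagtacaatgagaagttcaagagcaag
Ighv1-53: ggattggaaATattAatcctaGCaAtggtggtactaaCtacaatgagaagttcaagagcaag
Ighv1-64: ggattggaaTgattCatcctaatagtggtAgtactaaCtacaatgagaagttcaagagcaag
Ighv1-55: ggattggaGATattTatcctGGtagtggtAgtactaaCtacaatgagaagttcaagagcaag
Ighv1-69: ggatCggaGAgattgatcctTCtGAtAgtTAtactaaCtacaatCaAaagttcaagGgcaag
Ighv1-74: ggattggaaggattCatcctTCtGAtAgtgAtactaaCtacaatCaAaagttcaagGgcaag

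Ighv6-3 (ENSMUSG00000076677), at chr12:114391712-114392169, is shown as the most abundant member outside these relatives in the IgM libraries. Only 62.2% of the bases of Ighv1-72 are matched in it. The stretch covers bases 57 to 356 of its transcript, and its capitals mark the 10 bases of the longest run that it shares with Ighv1-72.

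Ighv6-3: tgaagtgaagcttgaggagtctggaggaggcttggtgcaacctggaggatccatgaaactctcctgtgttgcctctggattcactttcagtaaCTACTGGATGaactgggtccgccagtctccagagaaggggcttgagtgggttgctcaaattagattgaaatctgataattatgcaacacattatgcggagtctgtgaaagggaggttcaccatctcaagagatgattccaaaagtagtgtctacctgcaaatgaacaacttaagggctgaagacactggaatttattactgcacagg

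Ighv1-72, the V segment of B1-8, was the most abundant Ighv gene in every library, at similar levels in both groups, and it took a larger share of V transcripts in IgG1 than in IgM cells. In IgM replicates 1 to 5 it stood at 25974, 25468, 23248, 23069 and 25886 FPKM. In IgG1 replicates 1 to 5 it stood at 25995, 25217, 24716, 24792 and 31236 FPKM. The groups overlapped, and IgG1 replicate 5 stood above all other libraries. Group means were 24729 ± 1447 and 26391 ± 2756 FPKM (SD, n = 5 each), with a log2 difference (IgG1 minus IgM, on log2 of FPKM plus 1) of 0.09, a standard error of 0.07 and an adjusted p of 0.348 by limma, which did not pass the threshold of 0.05. After quantile normalization the difference was 0.82 and passed (limma adjusted p = 0.00986). In such bulk samples, fewer cells that use a V segment and less of its RNA per cell cannot be told apart.

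As a share of the FPKM summed over all 113 genes, Ighv1-72 made up 43.5%, 51.3%, 50.5%, 42.2% and 47.7% in IgM replicates 1 to 5. The same share was 67.9%, 66.2%, 68.1%, 67.2% and 65.3% in IgG1 replicates 1 to 5. Every IgG1 library was above every IgM library, and the IgG1 libraries lay close together. The means were 47.0% ± 4.07 and 67.0% ± 1.19 (SD, n = 5 each), which is 19.9 points higher in IgG1 (exact permutation p = 0.00794, two-sided, the smallest that 252 arrangements of 5 against 5 can give). That test took the libraries as unpaired. Counting the members within 95% identity together with Ighv1-72 gave 19.4 points, and leaving out each library in turn gave 18.7 to 21.0 points. Ighv1-50, at 91.8% identity, is not within that bound. Ighv1-72, Ighv1-50 and Ighv1-62-3 together, a set chosen after seeing the data, held 66.9% in IgM and 94.8% in IgG1 libraries, a difference of 28.0 points.

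The J segment of B1-8 likewise showed no difference in level between groups that passed. Ighj2, at chr12:113429468-113429567, averaged 63841 ± 5866 FPKM in the IgM group and 65572 ± 2858 FPKM in the IgG1 group (SD, n = 5 each; log2 difference 0.04, limma adjusted p = 0.63). It made up 95.6% ± 1.63 of the FPKM summed over the 4 Ighj genes in IgM and 99.1% ± 0.431 in IgG1 libraries, with no overlap. Ighj1 was listed at 429 to 1856 FPKM in the IgM libraries, and at 0 in every IgG1 library except replicate 4, where it was at 263 FPKM. Ighj3 and Ighj4 overlapped between groups. Ighj3 was at 0 to 2269 FPKM in IgM and 0 to 539 FPKM in IgG1 libraries, and Ighj4 at 0 to 2295 and 0 to 290 FPKM.

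**Figure D1:**
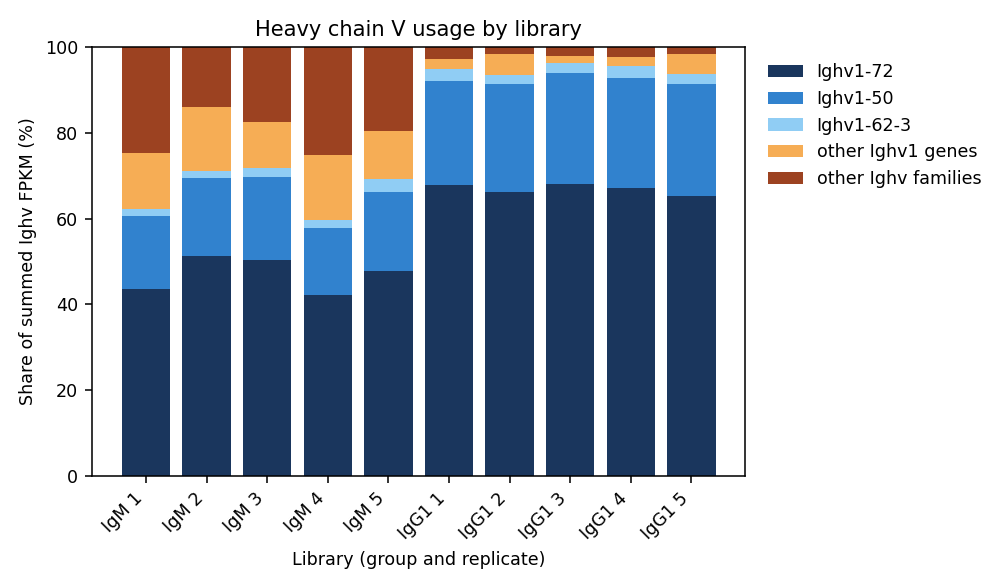
Stacked bars show the share of summed Ighv FPKM (percent, y axis) held by Ighv1-72, Ighv1-50, Ighv1-62-3, the other family 1 genes and all other families in each of the 10 libraries (x axis). Ighv1-72 holds 42.2% to 51.3% in the IgM libraries and 65.3% to 68.1% in the IgG1 libraries, and the 2 upper segments shrink from IgM to IgG1.

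Ighv1-50 was the second most abundant member and kept an almost fixed ratio to Ighv1-72. It stood at 10149, 9073, 8934, 8622 and 9987 FPKM in IgM replicates 1 to 5, and at 9312, 9568, 9399, 9504 and 12488 FPKM in IgG1 replicates 1 to 5. The groups overlapped, and IgG1 replicate 5 was again the highest. Its means were 9353 ± 675 and 10054 ± 1364 FPKM (SD, n = 5 each; log2 difference 0.10, limma adjusted p = 0.433). Its level was 35.6% to 40.0% of that of Ighv1-72 over the 10 libraries, a coefficient of variation of 3.56%, the smallest such variation among the other tested members. Its share of summed Ighv FPKM was 17.8% ± 1.41 in IgM and 25.4% ± 0.721 in IgG1 libraries, with no overlap.

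Ighv1-62-3, the closest relative, was far lower than Ighv1-50. It stood at 1079, 817, 955, 918 and 1682 FPKM in IgM replicates 1 to 5, and at 1057, 807, 821, 1005 and 1121 FPKM in IgG1 replicates 1 to 5. The groups overlapped, with IgM replicate 5 above the rest (log2 difference -0.14, limma adjusted p = 0.614). The sign turned without that library (0.025) and after quantile normalization (0.090). Its level was 3.20% to 6.50% of that of Ighv1-72.

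Percent identity did not order the levels of the relatives. Ighv1-50 ranked seventh in identity to Ighv1-72, at 91.8%, behind Ighv1-62-3, Ighv1-53, Ighv1-64, Ighv1-55, Ighv1-69 and Ighv1-74, all of which were lower in both groups. The longest run of identical bases shared with the Ighv1-72 transcript was 104 bases for Ighv1-50 and 220 bases for Ighv1-62-3. These were the 2 longest runs, ahead of 94 bases for Ighv1-53, and the same 2 genes had the highest mean levels among the relatives. Between them the order was reversed, since Ighv1-50 had the shorter run and the higher level. How fragments that match several segments were assigned is not given in the sources used here, so the level of each gene in such a set is uncertain. Ighv1-72, Ighv1-50 and Ighv1-62-3 together held 35172 ± 2266 FPKM in the IgM and 37408 ± 4191 FPKM in the IgG1 group, with overlap (SD, n = 5 each).

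The other close relatives were read one by one. Of the 10 members with at least 90% identity, 4 were lower in IgG1 cells, 0 were higher and 6 did not pass, where 20.2% of all tested genes were lower and 18.1% higher. Ighv1-53 (95.9% identity) stood at 883, 1411, 111, 757 and 531 FPKM in IgM replicates 1 to 5 and at 114, 87.0, 63.9, 96.4 and 118 FPKM in IgG1 replicates 1 to 5. Only IgM replicate 3 reached down into the IgG1 range, and the log2 difference was -2.57 (limma adjusted p = 0.0133). Ighv1-55 (94.6%) had no overlap, at 112 to 317 FPKM in IgM and 12.6 to 26.1 FPKM in IgG1 libraries (log2 difference -3.55, limma adjusted p = 6.48e-05). Ighv1-69 and Ighv1-74, both at 93.2% identity, differed less. Ighv1-69 averaged 248 FPKM in IgM (SD 60.8) and 145 FPKM in IgG1 (SD 29.3, n = 5 each), with a log2 difference of -0.77 (limma adjusted p = 0.0216). Ighv1-74 averaged 284 FPKM in IgM (SD 108) and 147 FPKM in IgG1 (SD 12.6, n = 5 each), with a log2 difference of -0.86 (limma adjusted p = 0.0421). That call of Ighv1-74 ended without a filter (adjusted p = 0.0644) and without any single library except IgM replicate 3 (adjusted p = 0.0666 to 0.0892). Ighv1-59, Ighv1-61 and Ighv1-52 did not pass, although their log2 differences of -3.08, -1.04 and -1.58 were farther from 0 than those of Ighv1-69 and Ighv1-74 (limma adjusted p of 0.0512, 0.387 and 0.266).

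Ighv1-64 (95.9% identity) varied between libraries rather than between groups. Its level was 445, 1209, 537, 247 and 974 FPKM in IgM replicates 1 to 5. In IgG1 replicates 1 to 5 it was 210, 1375, 50.7, 58.8 and 1623 FPKM. IgG1 replicates 2 and 5 thus stood above every IgM library, and IgG1 replicates 1, 3 and 4 below every one (log2 difference -1.12, limma adjusted p = 0.476). Replicates 2 and 5 were also the 2 highest within the IgM group, so the high libraries had the same numbers in both groups. In IgG1 replicates 2 and 5, Ighv1-64 alone made up 55.5% and 54.3% of the FPKM outside Ighv1-72, Ighv1-50 and Ighv1-62-3.

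**Figure D2:**
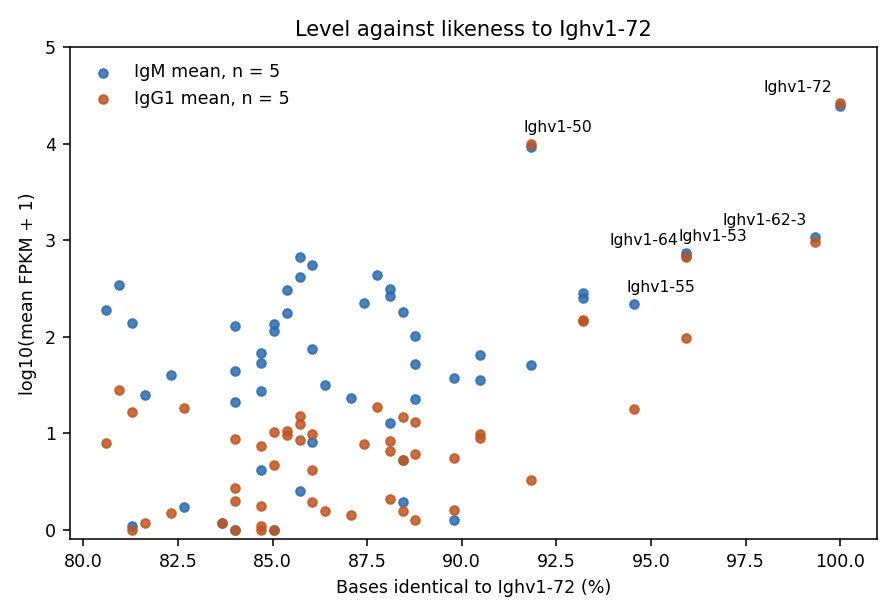
Points show the mean level (log10 of mean FPKM plus 1, y axis) of each member with at least 80% of bases identical to Ighv1-72 against that identity (percent, x axis), in IgM and IgG1 cells (n = 5 each). Ighv1-50, at 91.8% identity, sits above all genes but Ighv1-72, and for Ighv1-72, Ighv1-50, Ighv1-62-3 and Ighv1-64 the points of the 2 groups lie close together.

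Outside Ighv1-72, Ighv1-50 and Ighv1-62-3, V transcripts were several times more abundant in IgM cells. Together the other 110 members held 22470, 14307, 12941, 22118 and 16670 FPKM in IgM replicates 1 to 5. They held 1906, 2479, 1339, 1611 and 2989 FPKM in IgG1 replicates 1 to 5. The groups did not overlap, and the means differed 8.57-fold. As a share of summed Ighv FPKM these members came to 33.1% ± 5.55 in the IgM group and 5.16% ± 1.21 in the IgG1 group (SD, n = 5 each). The sum over all 113 genes was 52874 ± 5195 FPKM in the IgM and 39472 ± 4747 FPKM in the IgG1 group, with overlap. Set against the summed heavy chain constant genes, it was 47.5% ± 2.24 in IgM and 41.1% ± 2.02 in IgG1 libraries, without overlap. The constant sum was mostly Ighm in IgM and mostly Ighg1 in IgG1 cells, so these ratios rest on different genes. The part of that in the difference was not tested.

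Of the 113 genes, 10 were listed at 0 in every library, 13 more had a mean under 1 FPKM and were not tested, and 90 were tested. Among the 90, 22 were lower and 2 were higher in IgG1 cells, and 66 did not pass. That is 24.4% lower, where 20.2% of all 9900 tested genes were lower, and 2 higher, where 18.1% of all tested genes were. In either direction 26.7% of the members passed, against 38.3% of all tested genes. The share of members that were lower was thus near the background. The median log2 difference was -2.15 over the 90 members and -0.05 over all tested genes, and 78 of the 90 members were below 0. After quantile normalization the median over all genes was 0.06, and all tested genes split into 2182 higher and 1510 lower instead of 1791 and 2001. The groups did not overlap, with IgM above, in 15 members (16.7% of those tested, against 13.3% of all tested genes), and with IgG1 above in 1 member (13.1% of all tested genes). In either direction, 26.3% of all tested genes did not overlap.

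**Figure D3:**
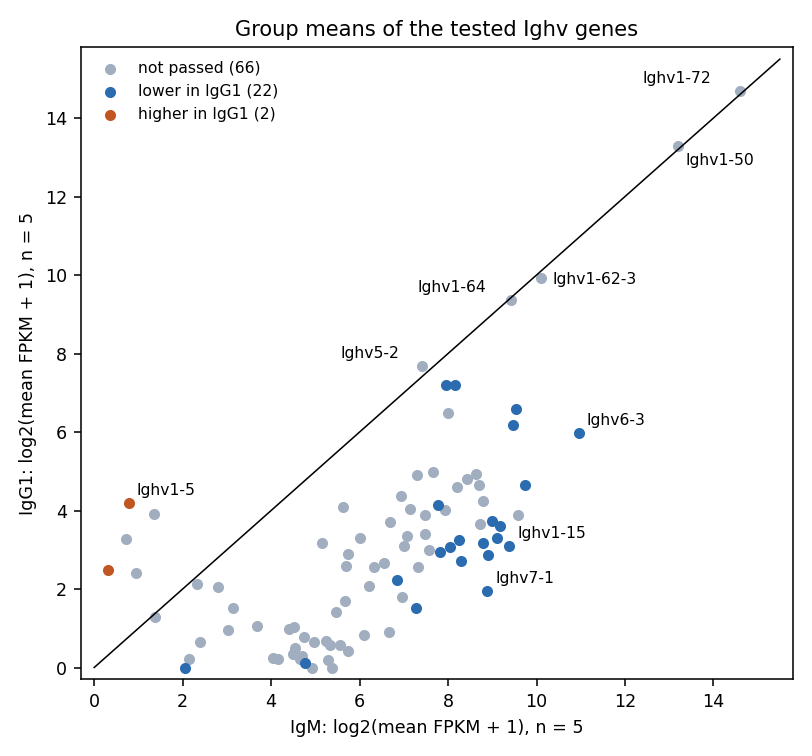
Each point is a tested Ighv gene, placed by its mean level in IgM (x axis) and IgG1 cells (y axis), both as log2 of mean FPKM plus 1 (n = 5 each), with the line of equal levels and colours for the outcome of the test. The 22 genes that were lower in IgG1 lie below the line, the 2 that were higher lie above it at low levels, and Ighv1-72 and Ighv1-50 lie on it at the top.

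Ighv6-3 led the other members in every IgM library. It stood at 2045, 1697, 2137, 2550 and 1556 FPKM in IgM replicates 1 to 5, and at 57.1, 35.7, 59.5, 73.9 and 82.4 FPKM in IgG1 replicates 1 to 5. All IgM libraries were far above all IgG1 libraries (log2 difference -5.03, SE 0.24, limma adjusted p = 6.49e-07). It held 3.80% ± 0.805 of the summed Ighv FPKM in the IgM group and 0.156% ± 0.0394 in the IgG1 group (SD, n = 5 each). Behind it the order changed from library to library. The next member was Ighv10-3 in IgM replicate 1, Ighv1-53 in replicate 2, Ighv1-15 in replicate 3, Ighv3-6 in replicate 4 and Ighv10-1 in replicate 5. The 5 leading other members made up 32.6% to 43.9% of the FPKM of the other members in each IgM library.

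The largest decreases were spread over several families. Ighv7-1, a family 7 segment, stood at 218, 759, 298, 582 and 509 FPKM in IgM replicates 1 to 5, and at 0, 1.31, 5.38, 5.68 and 1.95 FPKM in IgG1 replicates 1 to 5. With no overlap, it had the largest difference among members that passed (log2 difference -7.11, SE 0.60, limma adjusted p = 2.60e-05). Ighv1-15, of family 1, stood at 256, 541, 1052, 955 and 543 FPKM against 5.15, 12.8, 6.64, 2.27 and 11.1 FPKM (log2 difference -6.30, limma adjusted p = 2.17e-05). Ighv1-9, Ighv1-81, Ighv6-6, Ighv10-3, Ighv1-75 and Ighv7-3 had log2 differences of -5.94, -5.63, -5.62, -5.43, -5.34 and -5.30, and none of them overlapped between groups. Ighv10-3 ranged most widely among these within IgM, from 32.0 FPKM in replicate 3 to 1563 FPKM in replicate 1. Ighv3-6 (log2 difference -4.68, limma adjusted p = 4.55e-04) and Ighv9-3 (log2 difference -3.29, limma adjusted p = 1.10e-03) were also lower in IgG1 cells.

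Some members that were abundant in IgM libraries varied widely among them and did not pass. Ighv10-1 stood at 1302, 2.61, 225, 836 and 1469 FPKM in IgM replicates 1 to 5 and at 0.385 to 24.4 FPKM in IgG1 libraries. IgM replicate 2 alone lay in the IgG1 range, and with it the log2 difference was -4.81 (limma adjusted p = 0.0674), and without it -6.36 (adjusted p = 0.00281). Ighv5-9-1 stood at 1258 FPKM in IgM replicate 1 and at 0 to 7.10 FPKM in the other 4 IgM libraries, while IgG1 libraries held 269, 3.70, 25.5, 63.9 and 80.9 FPKM (log2 difference 1.77, limma adjusted p = 0.516). Its mean was nonetheless higher in IgM, at 255 ± 561 against 88.5 ± 105 FPKM (SD, n = 5 each). Of the 66 tested members that did not pass, 49 reached 100 FPKM in at least 1 IgM library and 6 in at least 1 IgG1 library.

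The 2 members that were higher in IgG1 cells were both low. Ighv1-5 was listed at 0, 0, 2.32, 1.26 and 0 FPKM in IgM replicates 1 to 5 and stood at 6.58, 7.65, 14.3, 38.8 and 19.8 FPKM in IgG1 replicates 1 to 5. Every IgG1 library was above every IgM library (log2 difference 3.35, limma adjusted p = 8.25e-04). Ighv1-66, named after its values were seen, was at 0.248 ± 0.0939 against 4.58 ± 3.77 FPKM (SD, n = 5 each), and IgG1 replicate 3 was at 0 (log2 difference 1.73, limma adjusted p = 0.0331). Its call ended without a filter (limma adjusted p = 0.101), with a pseudocount of 5 (0.0568), and without IgG1 replicate 1 or 5 or any single IgM library (0.0540 to 0.0725), while that of Ighv1-5 held in each of these.

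Members at 100 FPKM or more were counted in each library, and the contrast between groups depends on that level. There were 46, 39, 32, 45 and 46 such members in IgM replicates 1 to 5, and 10, 7, 5, 6 and 8 in IgG1 replicates 1 to 5. All IgM libraries had more than any IgG1 library. Over the libraries of a group, 69 members reached this level in at least 1 IgM library and 10 in at least 1 IgG1 library. All 10 were among the 69, so 59 members reached it in IgM libraries alone. In IgM, 19 members reached it in all 5 libraries and 50 in 1 to 4, of which 18 reached it in a single library. In IgG1, 5 members reached it in all 5 libraries, namely Ighv1-72, Ighv1-50, Ighv1-62-3, Ighv1-74 and Ighv5-2. At 10 FPKM or more there were 41 to 59 members in IgM and 24 to 37 in IgG1 libraries, without overlap. The mean counts differed 1.64-fold at that level and 5.78-fold at 100 FPKM. Members listed at 0 numbered 30 to 40 in IgM and 38 to 45 in IgG1 libraries, with overlap.

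**Figure D4:**
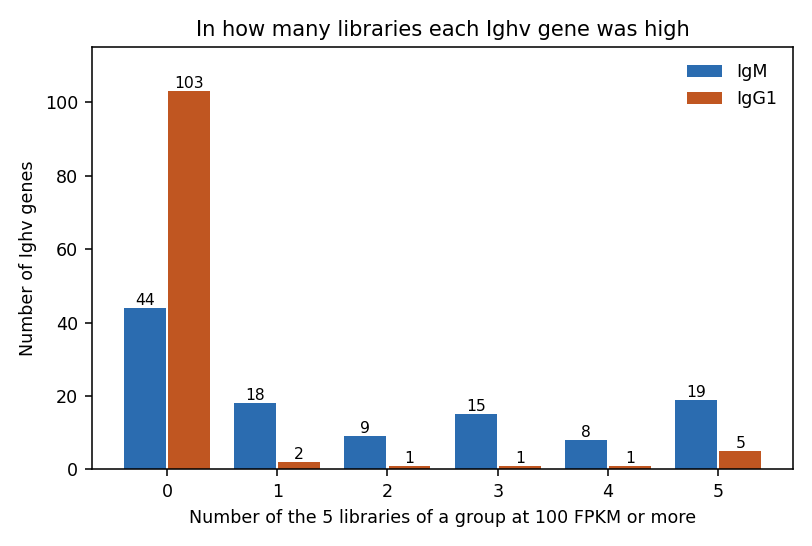
Bars count the Ighv genes (y axis) by the number of libraries of a group in which they reached 100 FPKM (x axis), for IgM and IgG1. In IgG1, 103 genes reached it in no library, against 44 in IgM, and 19 genes in IgM against 5 in IgG1 reached it in all 5 libraries.

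Ighv5-2 was named after its values were seen. Of the 113 genes it is the nearest to the constant region genes, at chr12:113578504-113578990, and matches 61.9% of the bases of Ighv1-72. It stood at 137, 148, 140, 216 and 205 FPKM in IgM replicates 1 to 5, and at 130, 154, 312, 241 and 188 FPKM in IgG1 replicates 1 to 5. The groups overlapped (log2 difference 0.23, SE 0.26, limma adjusted p = 0.52). It was the leading member outside Ighv1-72, Ighv1-50 and Ighv1-62-3 in IgG1 replicates 3 and 4.

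The effective number of V genes weighs these shares in 1 figure. It is the inverse Simpson index, which equals the number of genes when all are equally used and 1 when a single gene is used. It was 4.46, 3.32, 3.36, 4.76 and 3.75 in IgM replicates 1 to 5 and 1.92, 1.99, 1.88, 1.93 and 2.01 in IgG1 replicates 1 to 5. The IgM libraries were all higher and varied more, with means of 3.93 ± 0.652 and 1.95 ± 0.0542 (SD, n = 5 each). Without Ighv1-72, Ighv1-50 and Ighv1-62-3 the index was 26.7, 19.1, 16.3, 22.9 and 25.2 in IgM and 15.9, 3.10, 11.8, 17.4 and 3.24 in IgG1 libraries. The groups then overlapped, and the 2 lowest values were those of IgG1 replicates 2 and 5, where Ighv1-64 was high.

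By family, V usage in IgG1 cells was almost wholly family 1. The 53 family 1 members held 79.8% ± 4.77 of the sum in the IgM group and 98.0% ± 0.517 in the IgG1 group (SD, n = 5 each), without overlap. The other families together made up 24.7%, 14.0%, 17.5%, 25.2% and 19.5% in IgM replicates 1 to 5, and 2.64%, 1.46%, 2.09%, 2.33% and 1.51% in IgG1 replicates 1 to 5. Family 6 had the highest mean of them in IgM with 4.63% ± 1.31, against 0.177% ± 0.0537 in IgG1, and rested on Ighv6-3 and Ighv6-6, its 2 tested members, both lower in IgG1 cells. In IgM replicates 1 and 5, families 5 and 10 were above family 6. Family 5 made up 3.76% ± 1.26 in IgM and 1.05% ± 0.296 in IgG1 libraries, where it led the other families. Families 2, 3, 5, 6, 7, 9 and 10 had no overlap between groups, while families 4, 8, 11, 12, 13 and 14 did overlap and families 15 and 16 were at or near 0. Within family 1, the members other than Ighv1-72, Ighv1-50 and Ighv1-62-3 made up 13.0% ± 2.08 and 3.15% ± 1.62 of summed Ighv FPKM. Of the 47 tested family 1 members 13 were lower and 2 higher, and of the 9 tested family 5 members 1 was lower, beside 20.2% lower among all tested genes.

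By position along the locus, no block stood without a lower member, where 20.2% of all tested genes were lower. With the 113 genes split by order into 5 blocks, from the constant region genes outward, 3, 4, 6, 2 and 7 members were lower in IgG1 cells, of 20, 17, 16, 17 and 20 tested. In IgM libraries the FPKM outside Ighv1-72, Ighv1-50 and Ighv1-62-3 was divided over these blocks as 19.0%, 30.3%, 21.7%, 10.1% and 19.0% on average. In IgG1 libraries the division was 25.3%, 13.1%, 6.42%, 9.09% and 46.0%. The last block, which holds Ighv1-64, ranged from 27.2% to 72.9% over the IgG1 libraries. Ighv pseudogenes, 70 genes left out of all sums, held 33.9 ± 7.08 FPKM in the IgM and 18.0 ± 5.27 FPKM in the IgG1 group (SD, n = 5 each).

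**Figure D5:**
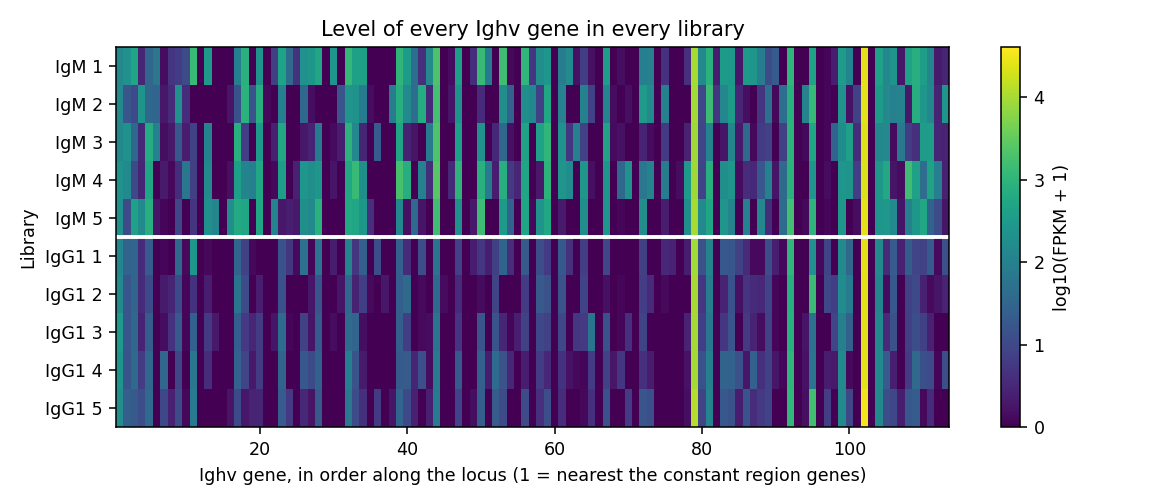
Each column is 1 of the 113 Ighv genes in order along the locus, each row a library, and the colour gives the level as log10 of FPKM plus 1. Ighv1-50 (column 79) and Ighv1-72 (column 102) are bright in all 10 rows, and many other columns are brighter in the IgM rows, with patterns that differ between IgM libraries.

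Among the IgM libraries, the kappa and Ighg1 levels were highest where the share outside Ighv1-72, Ighv1-50 and Ighv1-62-3 was largest. IgM replicates 1 and 4, with 37.7% and 40.4% of summed Ighv FPKM outside Ighv1-72, Ighv1-50 and Ighv1-62-3, held 69317 and 66283 FPKM of Igkc, the kappa constant gene. The other 3 IgM libraries, with 28.1% to 30.7%, held 43341 to 46120 FPKM, and the IgG1 libraries 14466 to 20280 FPKM. Within IgG1 the order differed, since replicate 2, with the largest such share (6.51%), had the lowest Igkc level. Ighg1 was likewise highest among IgM libraries in replicates 1 and 4, at 18488 and 19243 FPKM, against 9465 to 16046 FPKM in the others. The count of members at 100 FPKM or more gave another order. IgM replicate 5 equalled replicate 1 at 46 members, yet held 46120 FPKM of Igkc. Of the lambda genes read, 1 did not pass and 2 were lower in IgG1 cells. Iglv1, a lambda V segment, averaged 233550 FPKM in IgM (SD 17347) and 238920 FPKM in IgG1 (SD 15175, n = 5 each), with a log2 difference of 0.03 (limma adjusted p = 0.699). Iglv2, another lambda V segment, averaged 132770 FPKM in IgM (SD 15307) and 64974 FPKM in IgG1 (SD 4954, n = 5 each), with a log2 difference of -1.03 (limma adjusted p = 2.40e-05). Iglc1, a lambda constant gene, had a log2 difference of -0.20 (limma adjusted p = 0.0098). The part of kappa-bearing or other cells in the V usage was not tested.

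Markers of other cells were low beside the immunoglobulin genes, and several summed levels differed between groups. The counts of markers that passed stand beside 20.2% lower and 18.1% higher among all tested genes. All 13 plasma cell markers were tested, with 1 higher and 12 lower in IgG1 cells, and sums of 48728 to 54205 FPKM in IgM and 31300 to 35048 FPKM in IgG1 libraries. Of the 10 follicular and marginal zone B cell markers, 5 were tested and 4 were lower in IgG1 cells. Their sums were 131 to 273 FPKM in IgM and 89.2 to 106 FPKM in IgG1 libraries, none was at 0 in every library, and Pax5, which defines B cells before plasma cell differentiation, was at 0.0704 ± 0.148 and 0.06 ± 0.0842 FPKM (SD, n = 5 each). Ighd, the delta constant gene of naive B cells, was at 93.4, 1.43, 119, 3.97 and 9.33 FPKM in IgM replicates 1 to 5 and at 0.937 to 5.33 FPKM in IgG1 libraries. Germinal centre B cell markers, 2 of 7 tested lower, summed to 168 to 203 FPKM in IgM and 148 to 164 FPKM in IgG1 libraries. T cell markers, 1 of 3 tested higher and 1 lower, summed to 4.24 to 6.75 and 2.63 to 4.54 FPKM, with Cd5 at 0 throughout. NK cell markers, 0 of 1 tested passing, summed to 0.85 to 1.99 and 1.60 to 3.12 FPKM, with Gzmb, Gzma and Ncr1 at 0. Myeloid markers, of which 1 of 5 tested was lower (Cd68, 31.2 FPKM in IgM and 12.9 FPKM in IgG1) and the other 4 did not pass with log2 differences above 0, summed to 33.3 to 41.1 and 18.4 to 25.1 FPKM, with Itgax, S100a8 and S100a9 at 0, and erythroid markers, none of which was tested, summed to at most 5.60 FPKM. The part of these cells in the V usage was not tested.

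Genes listed for V promoters and enhancers, for hypermutation and switching, and for V(D)J recombination were read from 3 lists. V promoters carry an octamer motif that is bound by Oct-1 (Pou2f1) and Oct-2 (Pou2f2) with the coactivator OBF-1 (Pou2af1). Among the 20 tested of 23 octamer and enhancer factors, 2 were higher and 9 were lower in IgG1 cells, with a median log2 difference of -0.30. For this and the other lists, 18.1% of all tested genes were higher and 20.2% were lower. Pou2af1 was lower, with 320 FPKM in IgM (SD 11.6) and 248 FPKM in IgG1 (SD 16.0, n = 5 each) and a log2 difference of -0.37 (limma adjusted p = 2.64e-05), as were the regulators Irf8 (-1.61) and Mef2c (-0.99). Pou2f1 and Pou2f2 did not pass (log2 differences -0.13 and -0.24, limma adjusted p of 0.717 and 0.285), and Spi1 (0.57) and Tcf3 (0.35) were higher. Of 25 genes of hypermutation and switching, 24 were tested, with 3 higher (Apex1, Xrcc6 and Supt4a) and 0 lower. Of 11 genes in the V(D)J recombination list, 5 were tested and 2 were lower (Vpreb3 and Dclre1c), while Rag1, Rag2, Dntt and Vpreb2 were listed at 0 in every library. That list also holds Vpreb1, Vpreb2, Vpreb3 and Igll1, which do not carry out recombination, so Dclre1c was the only recombination gene that was lower.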

How the data were processed

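RNA from sorted spleen plasma cells was sequenced in 10 libraries, grouped by sample title. Per the labels' protocols, total RNA was taken with the miRNeasy Micro kit and libraries were made with a SMART-Seq mRNA kit. Per the submitters' processing notes, HISAT2 2.1.0, Cufflinks 2.2.1, Cuffdiff and the build GRCm38 were used, with settings and annotation not given in the sources used here. The authors deposited FPKM, per the file headers, in 1 file per library. Since FPKM is relative to the library, abundant genes lower the rest, and an exact 0 can be a failed estimate. No files held identical values.

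Identifiers were matched to GENCODE M21 (47219 of 47719), which gave symbols, types and coordinates counted from 1. Sequences came from its transcripts, and identity is the percentage of the last 294 bases of Ighv1-72 that were matched in a global alignment by Biopython 1.88. All 113 members had a transcript. Depth was estimated from single-fragment steps of low values, assuming fragments of 200 bases.

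The test used genes averaging 1 FPKM or more across the 10 libraries. It ran on log2 values with a pseudocount of 1, by limma 3.58.1 under R 4.3.3 (trend, robust, group as the only term, two-sided, Benjamini-Hochberg over all 9900 genes, threshold 0.05). The procedure was tested on simulated data. This scale understates changes of low genes. The share of Ighv1-72 was compared by an exact permutation test in scipy 1.17.1, as the only test of its family. Other shares and indices are descriptions. Python 3.11.15 with pandas 2.3.3, numpy 2.4.6 and matplotlib 3.10.9 made tables and plots.

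Named members were Ighv1-72, the 12 with the highest mean share, up to 8 with the largest change in each direction among those passing with at least 5 FPKM in the higher group, the 10 most alike Ighv1-72, any with 5% of summed Ighv FPKM in a library, and any with 1 library apart that held 2% there. Up to 4 genes of each list were named by smallest p. Other genes were named after their values were seen. The members and lists were chosen with earlier results of these data known. Alternatives covered the pseudocount, filter, scaling, variance model, replicate block, each library left out, the denominator of the shares and the index. The labels give no batch.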

Additional observations from a re-analysis of the deposited data

Results flagged for a closer look

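Of 57 groups of 5 libraries looked at, 8 had 1 library far from the other 4, judged by its gap to the nearest library relative to the range of the group (Dixon's critical value 0.71). Chance flags about 1 in 20 independent groups, a rate that cannot be set against these flags. Among the members looked at, 1 was named only because it had 1 library apart. The flags of Ighv1-72, Ighv1-50 and summed Ighv FPKM in IgG1 replicate 5 are not independent, since the sum contains both genes. In IgG1 replicate 5, Ighv1-72 stood at 31236 FPKM, where the next library was at 25995 FPKM, Ighv1-50 at 12488 FPKM, where the next was at 9568 FPKM, and summed Ighv FPKM at 47835, where the next was at 38269. The share of Ighv1-72 in that library, 65.3%, was the lowest of the IgG1 group.

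Ighv5-9-1 stood at 1258 FPKM in IgM replicate 1, where the next IgM library was at 7.10 FPKM. Ighv6-6 was apart in replicate 4 of both groups, at 975 FPKM in IgM, where the next was at 395 FPKM, and at 19.2 FPKM in IgG1, where the next was at 7.35 FPKM. Ighv1-55 stood at 26.1 FPKM in IgG1 replicate 4, where the next was at 16.3 FPKM. Ighv1-61 stood at 11.4 FPKM in IgG1 replicate 1, where the next was at 7.49 FPKM.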

How the results depend on the processing

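The count of lower members, 22, ranged from 17 to 27 over the library left out and was 30 with plain eBayes, 27 at a mean of at least 5 FPKM and 18 without a filter. The count of higher members, 2, was 1 at a mean of at least 5 FPKM, without a filter and with a pseudocount of 5, 1 to 2 over the library left out, 3 after quantile normalization and 4 when each library was scaled to its summed Ighv FPKM. That scaling, chosen after seeing the data, put 3808 of all genes higher and 684 lower, with a median log2 difference of 0.31. The log2 difference of Ighv1-72 was 0.82 after quantile normalization (limma adjusted p = 0.00986) and 0.51 relative to summed Ighv FPKM (limma adjusted p = 4.17e-05). That of Ighv1-62-3 was 0.090 after quantile normalization and ran from -0.24 to 0.025 over the library left out, with the positive value without IgM replicate 5. The cause was not tested. Among 476 repeats for named members, 452 kept direction and call, 11 lost the call, 11 gained it and 2 changed sign. Ighv1-59, not passed, passed under 6 settings.

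By the exponential of Shannon entropy the effective number was 9.63 in IgM and 2.71 in IgG1. Without Ighv1-72 the inverse Simpson index was 7.73 and 1.66, and the Shannon value 18.9 and 3.01. Without Ighv1-72, Ighv1-50 and Ighv1-62-3, a choice made after seeing the data, the index was 22.1 and 10.3. These are other quantities by construction.

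Libraries with the same replicate number deviated together with correlations of -0.04 to 0.10. Yet 3 of 5 IgM libraries correlated best with the IgG1 library of their own number. These values do not settle whether the numbers pair the samples. The labels do not tie libraries to animals, and the main tests took the libraries as unpaired. With the replicate block 19 members were lower and 2 higher, and the call of Ighv1-74 was lost (adjusted p = 0.0736) and that of Ighv10-1 gained (adjusted p = 0.0312). The paired test of the share of Ighv1-72, a difference of 19.9 points, gave an exact permutation p of 0.0625, the smallest that 5 pairs allow. Depth cannot be read as counts, so low members such as Ighv1-66 have no counting interval.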
